A study of Homo sapiens with 6 samples.

Results

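OSBP2 and its relatives form the oxysterol-binding protein (OSBP) family, and 10 of these genes were followed here among the 26334 gene rows of an RNA sequencing count table. The members were OSBP, OSBP2, OSBPL1A, OSBPL2, OSBPL3, OSBPL5, OSBPL8, OSBPL9, OSBPL10 and OSBPL11, taken by their symbols. The family was selected on its measured change, because OSBP2 was among the genes with the largest falls after WDR5 silencing, so the change of OSBP2 is given as a description without a test. OSBPL6 and OSBPL7, which are also family genes, were not in that list and are given beside it.

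The cells were MCF10DCIS.com (MCF10DCIS), a human basal-like breast cancer cell line of the MCF10A lineage that forms lesions resembling ductal carcinoma in situ in mice. Control cells (shLuc) carried a short hairpin RNA against luciferase and shWDR5 cells carried hairpins against WDR5, a scaffold subunit of the complexes that methylate lysine 4 of histone H3. Both groups carried the same lentiviral backbone with TagRFP and puromycin resistance and were selected with puromycin. The study's methods pool a pair of WDR5 hairpins, so the effects of single hairpins cannot be told apart. Each group had 3 libraries of polyadenylated RNA, and the labels do not say that they came from separate cultures, so p-values measure the spread between these samples, which may be technical.

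OSBP-related proteins carry lipids between membranes that lie close together. A shared lipid-binding domain holds a sterol or a phospholipid such as phosphatidylserine, and in several members the same pocket also takes phosphatidylinositol 4-phosphate (PI4P), so that one lipid can be exchanged for the other. Most members reach the endoplasmic reticulum by binding the VAP proteins VAPA and VAPB, and OSBPL5 and OSBPL8 are instead anchored in it by a membrane segment. OSBP itself was first known for binding oxysterols, the oxidised forms of cholesterol.

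Libraries held between 38218108 and 57640167 counts in genes, and the lowest count in any library was 1207 for the 10 members and 363 with OSBPL6 and OSBPL7 included. WDR5, the silenced gene, stood at 16.5, 15.2 and 16.1 RPKM (read counts scaled by library size and by exon length) in shLuc and at 7.34, 7.65 and 6.52 RPKM in shWDR5, a log2 fold change of -1.15. Of the 10 basal epithelial markers measured, 7 were higher and 3 lower in shWDR5, and their summed level ran from 3244 to 3555 RPKM in shLuc and from 5848 to 6771 RPKM in shWDR5. The 6 luminal markers summed to 1745 to 1891 RPKM in shLuc and 1685 to 1847 RPKM in shWDR5. The 8 markers of other cell types summed to 11.05 to 12.6 RPKM and 9.19 to 10.7 RPKM, with CD3E at 0 in all libraries. In each of the luminal and other-cell-type lists 5 genes were tested and 2 were lower in shWDR5. The part that the shift in basal markers has in the family values was not tested. In these bulk samples, fewer cells of a type and less RNA per cell cannot be told apart.

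OSBP2 encodes the closest relative of OSBP, also called ORP4, a sterol-binding protein known for its part in cell proliferation and survival. In the table's hg19 coordinates the gene lay on the plus strand of chr22:31089769-31303811, with 19 merged exon blocks that together measured 5227 bases. The table gave no exon base of OSBP2 that another gene also used. The RefSeq promoter table used here (GRCh38.p14) held windows for 2 OSBP2 starts. Their positions are in a different build, so they cannot be set directly against the hg19 span above. They are numbered in order along the chromosome, and whether either is the outermost start of the counted gene was not tested. The 250 bases before each are shown because they differ so much in CpG content, with every CpG dinucleotide in capitals.
OSBP2 start 1, chr22:30764003-30764252, plus strand: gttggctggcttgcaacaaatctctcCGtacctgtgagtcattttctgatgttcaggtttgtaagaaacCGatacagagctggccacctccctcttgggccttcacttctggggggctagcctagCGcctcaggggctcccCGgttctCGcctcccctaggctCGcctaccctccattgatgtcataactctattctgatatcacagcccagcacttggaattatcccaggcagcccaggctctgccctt
OSBP2 start 2, chr22:30822266-30822515, plus strand: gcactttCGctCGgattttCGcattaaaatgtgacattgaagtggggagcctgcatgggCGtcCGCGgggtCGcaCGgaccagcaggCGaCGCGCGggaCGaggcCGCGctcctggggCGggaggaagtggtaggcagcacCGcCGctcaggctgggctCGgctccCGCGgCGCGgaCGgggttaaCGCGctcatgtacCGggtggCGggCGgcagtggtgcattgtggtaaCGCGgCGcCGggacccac
The upstream window of start 1 held 6 CpG dinucleotides and that of start 2 held 33, against a median of 11 over the 35116 RefSeq promoters of the same length. Among all promoters, 38.1% had fewer CpG than start 1 and 91.9% had fewer than start 2. Start 2 held the letters GGGCGG at 2 places on either strand, and 42.6% of all promoters held them at least once. Neither window held CACGTG, which 6.34% of all promoters held, or CCAAT, which 32.0% held. The counts are per gene and do not say which start was used.

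OSBP2 was at 25.3, 26.8 and 22.9 RPKM in the shLuc libraries and at 5.22, 5.38 and 5.09 RPKM in the shWDR5 libraries. All 3 shLuc libraries lay above all 3 shWDR5 libraries, and the silenced group was the tighter of them. The mean went from 25.01 ± 1.96 RPKM (SD, n = 3) to 5.23 ± 0.145 RPKM (SD, n = 3), and the log2 fold change was -2.26 (SE 0.07), that is 4.78-fold lower. Among the 16117 genes that passed the filter on low counts, 26 had a lower log2 fold change. Those just beyond it were PACSIN1 at -2.28, GCOM1 at -2.29 and MESP1 at -2.31. Of the 2832 genes with a mean level in CPM (counts scaled by library size) at or above that of OSBP2, none had a lower log2 fold change. That cut was set at the level of OSBP2 itself, and these ranks restate the contrast that chose the family.

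**Figure D1:**
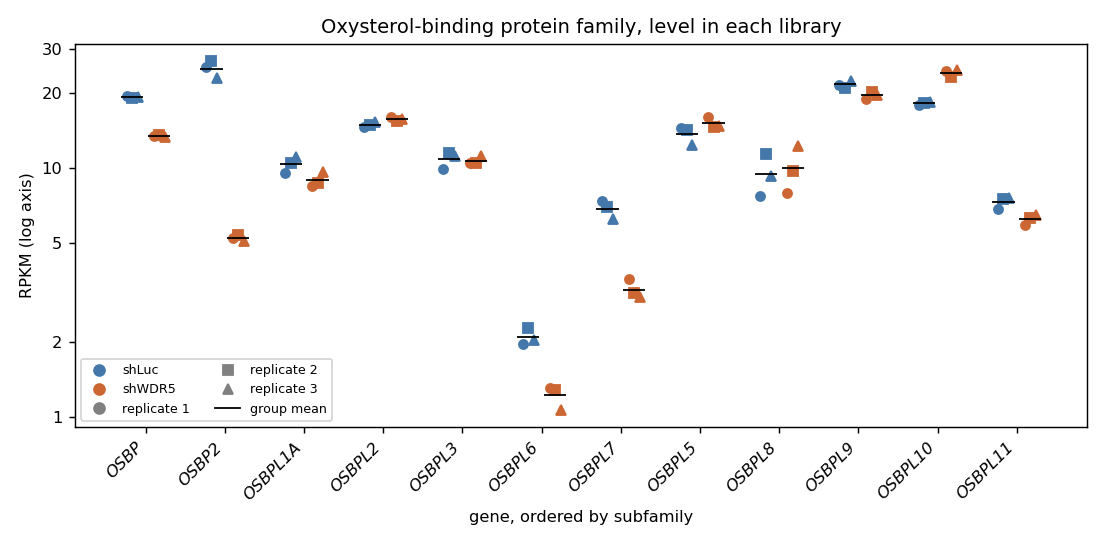
Levels of the 12 family genes in each library, in RPKM on a log axis, with shLuc in blue and shWDR5 in orange, a marker shape for each replicate number and a black line at each group mean. The shLuc points of OSBP2 lie between 22.9 and 26.8 RPKM and the shWDR5 points between 5.09 and 5.38 RPKM, while most other members stay close to their control level.

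The other 9 members all passed the filter on low counts, and 5 of them passed the test in edgeR's quasi-likelihood fit at a Benjamini-Hochberg adjusted p under 0.05, 1 higher and 4 lower in shWDR5. Over all genes tested 56.5% passed, 26.6% higher and 29.9% lower, so the count among the members was near the background. The median log2 fold change of the 9 members was -0.02 and that of all genes tested was -0.01. None of the 9 met the stricter rule of the study (an absolute log2 fold change of 0.6 or more with RPKM above 0.5), which 18.4% of all genes met, 7.9% higher and 10.5% lower. The 3 shLuc libraries did not overlap the 3 shWDR5 libraries in 6 of the 9 members and in 62.3% of all genes tested. The count of 5 depended on single libraries. It was 2 without shLuc replicate 2 or without shLuc replicate 3. It was 3 without shWDR5 replicate 1 or without shWDR5 replicate 2. In these fits between 8120 and 8560 of all genes passed, against 9112 with all libraries.

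**Figure D2:**
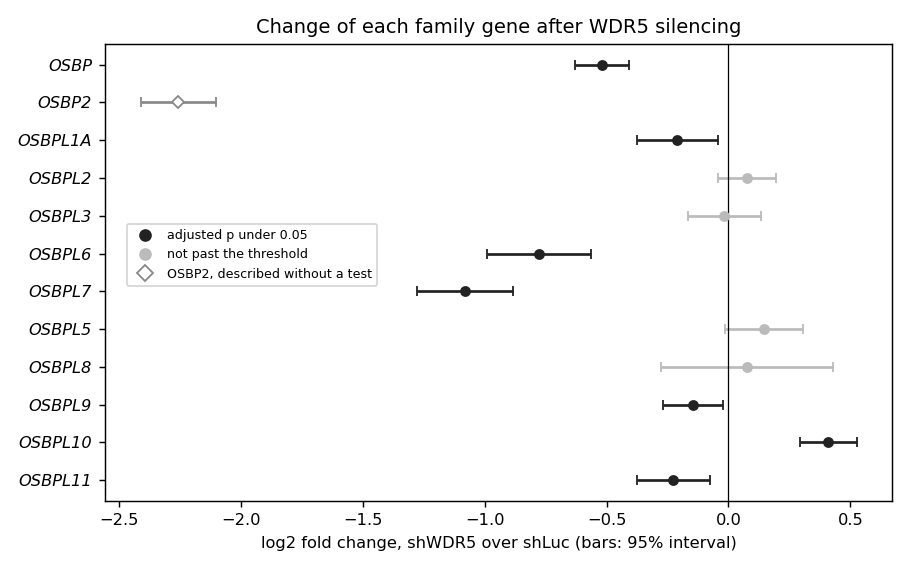
Log2 fold change of each family gene, shWDR5 against shLuc, with its 95% interval. Black points had an adjusted p under 0.05 and grey points did not. The open diamond is OSBP2, whose value of -2.26 chose the family and is not tested. OSBPL10 at 0.41 was the only tested member that rose with an adjusted p under 0.05.

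OSBP, the founding member, exchanges cholesterol for PI4P where the endoplasmic reticulum meets the trans-Golgi. It fell in shWDR5, but far less than its closest relative. Its levels were 19.4, 19.1 and 19.2 RPKM in shLuc and 13.4, 13.5 and 13.3 RPKM in shWDR5. Libraries of 1 group were almost the same and the groups were well apart. The log2 fold change was -0.52 (SE 0.0501, 95% interval -0.63 to -0.41, edgeR adjusted p = 1.23e-05), a level 30.2% lower. The ratio of OSBP2 to OSBP in RPKM was 1.31, 1.40 and 1.19 in shLuc and 0.390, 0.397 and 0.382 in shWDR5. OSBP2 was thus the more abundant of the pair in every control library and the less abundant in every silenced library.

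OSBPL10 and OSBPL11 are close relatives that act at the Golgi with OSBPL9, and they moved in opposite directions. OSBPL10 was at 18.0, 18.2 and 18.4 RPKM in shLuc and at 24.5, 23.3 and 24.6 RPKM in shWDR5. All silenced libraries were above all controls, and it was the only one of the 9 tested members that passed the test as higher. Its log2 fold change was 0.41 (SE 0.0526, 95% interval 0.29 to 0.53, edgeR adjusted p = 8.58e-05), a level 32.8% higher. OSBPL10 shares 77 exon bases, or 1.83% of its length, with ZNF860, whose reads could not be told apart there. OSBPL11 was at 6.83, 7.501 and 7.56 RPKM in shLuc and at 5.93, 6.29 and 6.47 RPKM in shWDR5. The groups did not overlap, but the gap between them was narrow. The log2 fold change of OSBPL11 was -0.23 (SE 0.0676, edgeR adjusted p = 0.015), and the adjusted p was 0.0538 without shLuc replicate 2 and 0.0575 without shLuc replicate 3. The ratio of OSBPL10 to OSBPL11 was 2.63, 2.42 and 2.44 in shLuc and 4.13, 3.70 and 3.81 in shWDR5.

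OSBPL9, which moves lipids at the Golgi and in endosomes, was at 21.5, 21.0 and 22.4 RPKM in shLuc and at 18.9, 20.3 and 19.6 RPKM in shWDR5. The groups did not overlap, and the difference was small beside the level. The log2 fold change was -0.15 (SE 0.0554, 95% interval -0.27 to -0.02, edgeR adjusted p = 0.0439). This call did not hold without any one of the 6 libraries, with adjusted p between 0.0537 and 0.142. OSBPL9 shares 26 exon bases with NRD1.

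OSBPL1A and OSBPL2 are relatives that work at late endosomes and at lipid droplets and the plasma membrane, respectively. OSBPL1A was at 9.54, 10.5 and 11.05 RPKM in shLuc and at 8.51, 8.70 and 9.65 RPKM in shWDR5, so that the highest silenced library passed the lowest control. Its log2 fold change was -0.21 (SE 0.0745, edgeR adjusted p = 0.0336), a call that was lost without shLuc replicate 2, shLuc replicate 3, shWDR5 replicate 1 or shWDR5 replicate 2, with adjusted p between 0.0851 and 0.132. OSBPL2 was at 14.6, 14.9 and 15.2 RPKM in shLuc and at 16.1, 15.4 and 15.7 RPKM in shWDR5. The groups were apart by a narrow gap and the test was not passed, at a log2 fold change of 0.08 (95% interval -0.04 to 0.19, edgeR adjusted p = 0.25). The RPKM ratio of OSBPL2 to OSBPL1A was 1.53, 1.42 and 1.38 in shLuc and 1.89, 1.77 and 1.63 in shWDR5.

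OSBPL5 and OSBPL8 carry phosphatidylserine to the plasma membrane in exchange for PI4P, and neither passed the test. OSBPL5 was at 14.4, 14.2 and 12.4 RPKM in shLuc and at 16.1, 14.6 and 14.8 RPKM in shWDR5, with no overlap. Its log2 fold change was 0.15 (95% interval -0.01 to 0.31, edgeR adjusted p = 0.111), and without shLuc replicate 1 the adjusted p was 0.0421. OSBPL8 was the most variable member, at 7.73, 11.4 and 9.25 RPKM in shLuc and at 7.96, 9.73 and 12.2 RPKM in shWDR5. The library numbered 1 was the lowest in both groups, and the groups overlapped over most of their range. The interval of its log2 fold change, -0.28 to 0.43 around 0.08, was the widest of the family genes (edgeR adjusted p = 0.71).

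OSBPL3, OSBPL6 and OSBPL7 are close relatives, of which OSBPL3 is known for a role in cell adhesion. OSBPL3 was at 9.88, 11.5 and 11.2 RPKM in shLuc and at 10.5, 10.5 and 11.2 RPKM in shWDR5. The silenced libraries lay inside the range of the controls, and the log2 fold change was -0.02 (95% interval -0.17 to 0.13, edgeR adjusted p = 0.853), a sign that turned with the scaling. OSBPL7 was at 7.40, 6.95 and 6.27 RPKM in shLuc and at 3.58, 3.15 and 3.03 RPKM in shWDR5. This was the second largest fall of the family, with a log2 fold change of -1.08 (SE 0.0886, edgeR adjusted p = 4.16e-06). OSBPL6, the least abundant family gene, was at 1.97, 2.29 and 2.05 RPKM in shLuc and at 1.31, 1.29 and 1.07 RPKM in shWDR5. It fell by 0.78 on the log2 scale (SE 0.0955, edgeR adjusted p = 6.36e-05). Both OSBPL6 and OSBPL7 met the stricter rule of the study, which 18.4% of all genes met. With these genes included, 7 of the 11 family genes other than OSBP2 passed the test, 1 higher and 6 lower, or 63.6% against 56.5% of all genes, and their median log2 fold change was -0.15. The RPKM ratio of OSBPL3 to OSBPL7 was 1.34, 1.65 and 1.78 in shLuc and 2.92, 3.34 and 3.69 in shWDR5.

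The summed level of the 12 family genes was 157, 164 and 158 RPKM in shLuc and 132, 132 and 137 RPKM in shWDR5, a mean that was 16.3% lower. Without OSBP2 the sum of the other 11 genes was 134.6 ± 3.14 RPKM (SD, n = 3) in shLuc and 128.4 ± 2.83 RPKM (SD, n = 3) in shWDR5, which was 4.65% lower. Over the 9 members without OSBP2, the means differed by less than the SD of either group, at 125.7 ± 3.32 RPKM and 123.9 ± 3.16 RPKM. OSBP2 gave 16.2%, 16.3% and 14.5% of the 12-gene sum in the shLuc libraries and 3.96%, 4.07% and 3.72% in the shWDR5 libraries. OSBPL10 gave a mean of 11.4% in shLuc and 18.1% in shWDR5. OSBPL2, OSBPL3, OSBPL5 and OSBPL8, which did not pass the test themselves, made up a larger mean share of this smaller sum in shWDR5. So did OSBPL1A, OSBPL9 and OSBPL11, which passed the test as lower. The mean shares of OSBP, OSBPL6 and OSBPL7 were smaller in shWDR5.

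**Figure D3:**
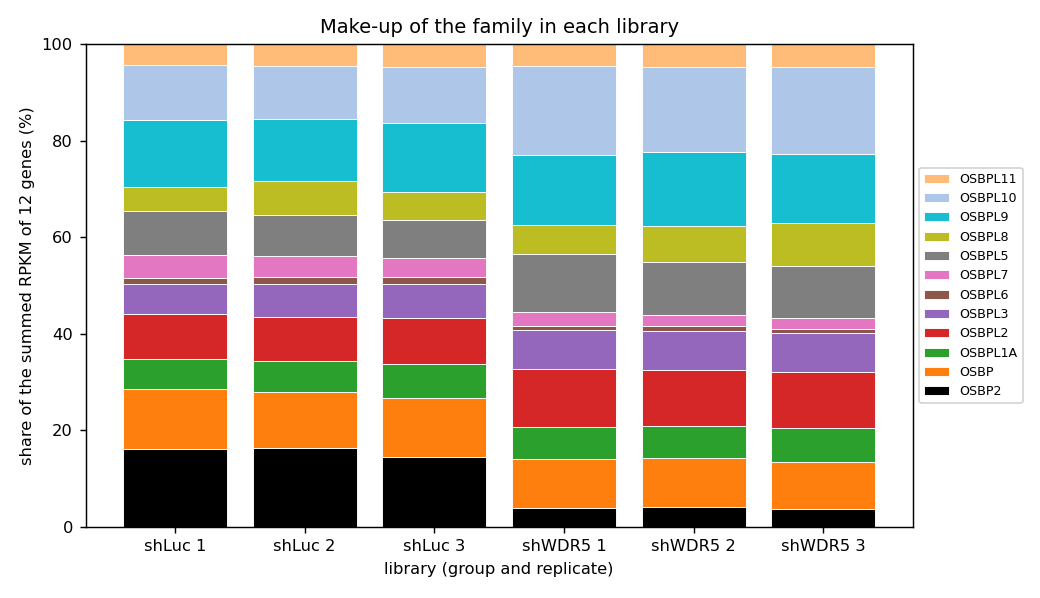
Share of the summed RPKM of the 12 family genes that each gene gave, in percent, stacked for each library, with OSBP2 in black at the bottom. The black part falls from between 14.5% and 16.3% in shLuc to between 3.72% and 4.07% in shWDR5.

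By level per length, OSBP2 was the first of the 12 genes in all 3 shLuc libraries and the 10th in all 3 shWDR5 libraries. In shLuc it was followed by OSBPL9, OSBP, OSBPL10, OSBPL2, OSBPL5, OSBPL3, OSBPL1A, OSBPL8, OSBPL11, OSBPL7 and OSBPL6, and only the neighbours OSBPL3 and OSBPL1A, OSBPL1A and OSBPL8, and OSBPL11 and OSBPL7 overlapped over the libraries. In shWDR5 OSBPL10 was first in every library, followed by OSBPL9, OSBPL2, OSBPL5, OSBP, OSBPL3, OSBPL8, OSBPL1A, OSBPL11, OSBP2, OSBPL7 and OSBPL6. There the neighbours OSBPL2 and OSBPL5, OSBPL3 and OSBPL8, and OSBPL8 and OSBPL1A overlapped. The ratio of OSBPL10 to OSBP2 was 0.709, 0.679 and 0.805 in shLuc and 4.69, 4.33 and 4.84 in shWDR5.

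The genes whose pattern over the 6 libraries was most like that of OSBP2 were STMN3, CMAHP, SP6, GRAMD2 and CKB, by the Euclidean distance between log2 CPM centred on each gene's mean. The distance was 0.118 for STMN3, a stathmin family protein that binds tubulin, which was at 34.4, 34.2 and 32.4 RPKM in shLuc and at 7.33, 7.28 and 7.03 RPKM in shWDR5. It was 0.184 for CMAHP, 0.186 for the transcription factor SP6, 0.213 for GRAMD2 and 0.220 for the creatine kinase CKB. The distance uses the contrast that chose OSBP2, and it is a description of these libraries.

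Genes near OSBP2 on chromosome 22 moved in both directions. Within 250 kb of its ends the table held 17 other genes, of which 12 passed the filter, with 3 higher, 5 lower and 4 not passing the test, beside 26.6% higher and 29.9% lower over all genes. Their log2 fold changes ran from -0.87 to 0.80 with a median of -0.17. Each was nearer to 0 than that of OSBP2, but OSBP2 was chosen for its large fall, so this largely restates that choice. The nearest on the downstream side were MORC2-AS1, which rose by 0.80 on the log2 scale (edgeR adjusted p = 1.52e-04), and MORC2, an ATPase that compacts chromatin, which rose by 0.28 (edgeR adjusted p = 1.74e-03). These 2 lie on opposite strands and share 43 exon bases, or 2.02% of the length of MORC2-AS1. The library kit does not mark strand, so reads within those bases cannot be told apart. On the upstream side DUSP18, a phosphatase, was at 1.86 RPKM in shLuc and 1.49 RPKM in shWDR5 (log2 fold change -0.32, edgeR adjusted p = 9.79e-03). SLC35E4, at a distance of 45.9 kb, fell from 2.90 ± 0.102 RPKM to 1.58 ± 0.0527 RPKM (SD, n = 3; edgeR adjusted p = 1.11e-05). TCN2, the vitamin B12 carrier transcobalamin, was at 0.521 and 0.298 RPKM, and PES1, a ribosome assembly factor, rose from 27.2 to 34.0 RPKM.

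**Figure D4:**
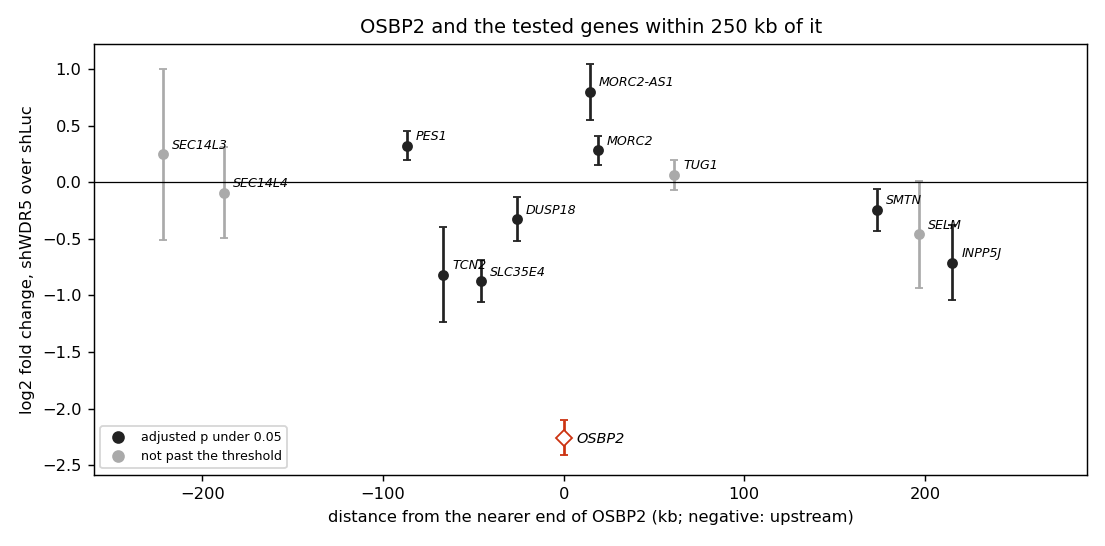
Log2 fold change of the tested genes within 250 kb of OSBP2 against their distance in kb from its nearer end, upstream to the left and downstream to the right. The neighbours lie between -0.87 and 0.80, and OSBP2 at -2.26 lies below all of them. Its place there largely restates that it was chosen for its large fall.

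Genes for the VAP proteins and for other proteins of endoplasmic reticulum contact sites moved in both directions. Of 12 such genes tested, 5 rose, 5 fell and 2 did not pass the test, with a median log2 fold change of -0.05. The share that passed was 83.3%, against 56.5% of all genes, and the difference between these shares was not tested. VAPA, the anchor that OSBP and most relatives bind, rose from 14.2 ± 0.867 to 19.1 ± 1.21 RPKM (SD, n = 3), a log2 fold change of 0.42 (edgeR adjusted p = 3.52e-04). VAPB rose by 0.22 on the log2 scale (edgeR adjusted p = 0.0291), a call that was lost without shLuc replicate 1, shLuc replicate 2, shWDR5 replicate 2 or shWDR5 replicate 3, with adjusted p between 0.0640 and 0.133. PDZD8, which tethers the endoplasmic reticulum to endosomes, fell from 12.8 to 6.38 RPKM (edgeR adjusted p = 1.52e-06). The tether ESYT1 rose from 28.9 to 40.7 RPKM, and its relative ESYT3 fell from 1.45 to 0.846 RPKM.

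Genes that make and remove PI4P, the lipid that OSBP spends in exchange, also moved both ways, with 4 higher, 5 lower and 5 not passing among 14 tested and a median of -0.02. The share that passed was 64.3%, near the 56.5% of all genes. The kinase PI4KA was at 13.4 and 13.1 RPKM and did not pass the test (edgeR adjusted p = 0.785). TTC7A, a subunit of the PI4KA complex at the plasma membrane, fell from 9.87 to 4.69 RPKM (log2 fold change -1.07, edgeR adjusted p = 8.90e-07). PI4K2B fell from 11.8 to 8.13 RPKM. EFR3B, which anchors the PI4KA complex, rose by 1.10 on the log2 scale but from only 0.109 RPKM. PIP5K1C, which turns PI4P into the bisphosphate, rose from 6.75 to 9.71 RPKM. SACM1L, the phosphatase that breaks PI4P down, had a log2 fold change of 0.20 with a 95% interval of 0.02 to 0.38 (edgeR adjusted p = 0.0541).

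Of 21 tested genes for other sterol and lipid carriers and related proteins, 5 rose, 9 fell and 7 did not pass the test, with a median of -0.18. The share that passed was 66.7%, against 56.5% of all genes. PITPNM3 fell by 1.41 on the log2 scale, and the sterol carrier GRAMD1C fell from 1.53 to 0.579 RPKM. STARD5 fell by 1.14 and PCTP, the phosphatidylcholine transfer protein, by 0.88 on the log2 scale. NPC1, which exports cholesterol from lysosomes, fell from 24.3 to 20.1 RPKM (log2 fold change -0.27, edgeR adjusted p = 2.93e-03).

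Of 26 tested genes of the SREBP pathway, which senses cholesterol and drives its synthesis, 1 rose, 14 fell and 11 did not pass the test, with a median of -0.22. The share that passed, 57.7%, was near the 56.5% of all genes. The split by direction was less even than over all genes, of which 26.6% were higher and 29.9% lower, and this difference was not tested. HMGCS1, an early enzyme of cholesterol synthesis, fell from 123 to 52.6 RPKM (log2 fold change -1.22, edgeR adjusted p = 5.26e-07). ACAT2 and INSIG1 fell by 0.70 and 0.65 on the log2 scale. Of the factors that drive these genes, SREBF1 fell from 103 to 79.1 RPKM (log2 fold change -0.39, edgeR adjusted p = 1.60e-04), and SREBF2 was at 71.5 and 74.1 RPKM and did not pass the test (edgeR adjusted p = 0.472). SREBF1 was named after its values were seen.

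The liver X receptors are the nuclear receptors for oxysterols. Among their genes and those of oxysterol synthesis, 10 were tested. Of these, 2 rose, 3 fell and 5 did not pass the test, with a median of 0.11. The share that passed was 50.0%, near the 56.5% of all genes. CYP27A1, which makes an oxysterol in mitochondria, rose by 2.41 on the log2 scale (SE 0.239, edgeR adjusted p = 1.50e-05). It remained scarce, with counts of 12, 6 and 6 in shLuc and 47, 58 and 44 in shWDR5. The receptor NR1H3 fell from 4.48 to 2.45 RPKM, and the other receptor, NR1H2, was at 41.9 and 45.8 RPKM and did not pass the test (edgeR adjusted p = 0.0736). Of their targets, ABCG1 rose from 0.297 to 0.533 RPKM and SMPDL3A fell by 0.56 on the log2 scale (edgeR adjusted p = 0.0140, or 0.0642 without shLuc replicate 3).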

How the data were processed

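RNA of 3 shLuc and 3 shWDR5 MCF10DCIS libraries was sequenced by the authors. They deposited raw read counts per gene, with gene positions and exon lengths in hg19. The submitters' processing notes name TopHat2 2.1.0, featureCounts and edgeR 3.2.2. The annotation release, the strand setting and the handling of reads with several matches are not given in the sources used here. A second deposited table holds the authors' own comparison (fold change, mean level, F, p and adjusted p) and was not used.

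The counts were fitted in edgeR 4.0.16 (R 4.3.3) with the quasi-likelihood test, group as the only term, TMM scaling, the filterByExpr filter and Benjamini-Hochberg adjustment over all 16117 genes kept. All 6 libraries were used, and all 12 family genes passed the filter. RPKM were computed from the counts, TMM library sizes and the table's lengths. Standard errors came from the F statistic. The script was tested on simulated data. Alternatives were other scaling (DESeq2 1.42.0 size factors), no filter or a minimum of 10 counts in 3 libraries, DESeq2's Wald test, a replicate block, the study's call rule and leaving out each library.

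The members and gene lists were chosen with earlier results of these data known. Named genes were all members, WDR5, OSBPL6, OSBPL7, up to 4 called genes of largest change in each list with those a clause of background needed, the 6 nearest called neighbours and the 5 nearest profiles. Some results that this rule names are not reported here.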

Additional observations from a re-analysis of the deposited data

How the results depend on the processing

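The log2 fold change of OSBP2 lay between -2.32 and -2.21 over all alternatives. OSBP and OSBPL10 passed the test in all of them, leaving out each library included, except for the study's call rule. Under that rule 2962 of all genes were called, or 18.4%. It called OSBPL6 and OSBPL7 but 0 of the 9 members. Of the related lists it called 3 of 12 contact-site genes, 1 of 14 PI4P genes and 4 of 21 genes for lipid carriers and related proteins. It also called 2 of 10 oxysterol and liver X receptor genes, 4 of 26 SREBP pathway genes and 4 of 12 genes near OSBP2. Leaving out 1 library at a time gave 2 to 5 of the 9 members. Over all genes it gave from 8120 of 16306 to 8847 of 16321. The log2 fold change of OSBPL3 turned to 0.00127 with DESeq2 size factors and 0.00132 in DESeq2, and lay between -0.0654 and 0.0170 when 1 library was left out. That of OSBPL8 lay between -0.0947 and 0.224 and that of PI4KA between -0.0950 and 0.0148. The call of OSBPL9 was lost with DESeq2 size factors (adjusted p = 0.0747), without the filter (0.0506) and in DESeq2 (0.120). By CPM without length, OSBP2 made up 16.7% of the family sum in shLuc and 4.23% in shWDR5. With the replicate number as a block, 6 of the 9 members and 10412 of all 16117 genes were called, and OSBPL5 gained a call (adjusted p = 0.0203). The numbers were not taken to pair the libraries, since deviations of same-numbered libraries correlated at 0.372, 0.0358 and 0.116 and not every library correlated best with its own number. The libraries numbered 1 did correlate best with each other. Replicates 2 and 3 were the most alike in each group, with a chi-square per degree of freedom of 7.61 in shLuc and 7.20 in shWDR5. Pairs with replicate 1 gave between 14.4 and 18.4. Whether the libraries numbered 1 share a batch was not tested. The causes of the shifts between alternatives were not tested. What depth limits was not tested by thinning the reads, and the lowest count of a member in a library was 1207.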

Other observations

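Noncoding genes at family loci were at or near 0 in these polyadenylated libraries. The antisense gene OSBPL10-AS1 had between 1 and 6 counts per library, and the microRNA gene MIR3200, inside the span of OSBP2, had 0 in all 6.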
